A study of Mus musculus with 12 samples.

Results

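C1q is the recognition protein of the classical complement pathway, and in the gut wall it is made chiefly by macrophages. The results below concern 10 genes of macrophages and of C1q, out of 23790 genes in the deposited tables. They were taken by symbol: the C1q chain genes C1qa, C1qb and C1qc, the lysozyme gene Lyz2, the surface markers Csf1r, Cd68, Adgre1 and Itgax, and the signalling adaptors Tyrobp and Fcer1g. All 10 were found in both tables. The libraries were made from purified colonocytes, the absorptive epithelium of the mouse colon, so these genes mark a cell type that the label does not name.

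The study asked how the locus that encodes C15ORF48 and miR-147 affects inflammation of the gut. RNA-seq of polyadenylated RNA covered 12 libraries in 4 groups of 3. The groups were colonocytes of C15ORF48/miR-147 KO mice and of WT mice that received DSS (dextran sodium sulfate, which damages the colonic lining) at 3% over 3 days, and colonocytes of untreated KO mice and of untreated WT mice. In the labels a free-text line on treatment mentions DSS for each of the 12 libraries, so the titles and the treatment field were followed. The labels give no strain or age, name no promoter or Cre, and do not state if the replicates were different animals; p-values therefore reflect library-to-library spread, which may be technical.

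Levels are RPKM (reads scaled to gene length and library depth), as deposited, and whole reads were recovered from the RPKM steps. The DSS libraries held 12621697 to 16707030 reads and the untreated libraries 20606918 to 26839250. AA467197, the mouse gene of C15ORF48, had 6.54 to 9.19 RPKM in KO DSS and 370 to 515 RPKM in WT DSS libraries, and 4.03 to 5.67 RPKM in KO untreated and 430 to 442 RPKM in WT untreated libraries. The epithelial marker Epcam had 1055 to 1444 RPKM in the 12 libraries, and no macrophage gene of the 10 exceeded 7.48 RPKM. The DSS libraries and the untreated libraries were deposited in separate tables that were normalised separately, so levels under DSS and without it are set side by side with no test, and batch and DSS cannot be told apart.

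C1q has A, B and C chains, encoded by C1qa, C1qb and C1qc. Each chain has a collagen-like stalk and a globular head that binds antibody complexes and dying cells, and a C1q molecule needs all of the chains. The genes are neighbours on mouse chromosome 4 (GRCm38, GENCODE vM21, minus strand): C1qb at 136880129 to 136886187, C1qc at 136889804 to 136893065 and C1qa (ENSMUSG00000036887.5) at 136895917 to 136898803. The gap between C1qb and C1qc is 3.616 kb and that between C1qc and C1qa 2.851 kb, and no annotated gene overlaps any of them. The collagen-like stretch is shown for each chain because the results turn on whether the chains moved together. These are the first 10 Gly-X-Y triplets of the longest run in the GENCODE vM21 transcript, read 5′ to 3′ on the coding strand, with the glycine codons in capitals.
C1qa, chr4:136896619-136896708: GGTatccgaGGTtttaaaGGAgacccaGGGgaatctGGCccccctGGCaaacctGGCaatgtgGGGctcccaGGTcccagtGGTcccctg
C1qb, chr4:136882128-136882217: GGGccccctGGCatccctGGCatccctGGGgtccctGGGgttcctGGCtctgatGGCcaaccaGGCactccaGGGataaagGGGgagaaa
C1qc, chr4:136890493-136890582: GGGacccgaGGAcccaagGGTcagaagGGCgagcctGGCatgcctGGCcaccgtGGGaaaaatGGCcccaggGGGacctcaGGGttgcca
The uninterrupted run has 16 triplets in C1qa, 29 in C1qb and 16 in C1qc. The chains share the glycine spacing and little exact sequence. The longest exact match between transcripts was 12 bases for C1qa and C1qb, 11 for C1qa and C1qc, and 15 for C1qb and C1qc.

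C1qa was the gene of the 10 with the largest difference between genotypes under DSS. It had 1.83, 4.92 and 2.30 RPKM in KO DSS libraries, against 0.117, 0.327 and 0.0574 RPKM in WT DSS libraries. Every KO DSS library lay above every WT DSS library, and the lowest KO value was several times the highest WT value. In reads this was 25, 85 and 38 in KO DSS libraries and 2, 6 and 1 in WT DSS libraries. The means were 3.01 ± 1.67 RPKM in KO DSS and 0.167 ± 0.142 RPKM in WT DSS (SD, n = 3 each), a ratio of 18. On the log2(RPKM + 1) scale, which understates the change of low genes, C1qa rose by 1.71 (SE 0.26, limma adjusted p = 0.0340 over 10990 genes tested). In that comparison 0.764% of the genes tested were called, and 0.446% were called higher in KO.

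The call for C1qa rests on few reads, since WT DSS held 9 C1qa reads in all. C1qa passed the filter on low values (1 RPKM or more in at least 3 libraries) through the KO DSS libraries alone. A filter on the mean of the 6 libraries gave an adjusted p of 0.0347, the fit with no filter, in which 0.00569% of 17576 genes were called, an adjusted p of 0.138, and a fit with the trend of gene length taken out one of 0.0583. Leaving out KO DSS 3, WT DSS 1, WT DSS 2 or WT DSS 3 ended the call, with adjusted p of 0.112, 0.176, 0.161 and 0.0576 in that order.

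In untreated mice C1qa had 3.65, 3.21 and 2.34 RPKM in KO libraries, against 4.59, 1.85 and 5.18 RPKM in WT libraries. The groups overlapped. The log2 difference was −0.20 (SE 0.28, limma adjusted p = 0.829 over 11072 genes tested). The untreated means were 3.07 ± 0.669 RPKM in KO and 3.87 ± 1.77 RPKM in WT (SD, n = 3 each), so that KO DSS, KO untreated and WT untreated overlapped with each other and WT DSS lay below them all. C1qa was the one member of the 10 whose lowest group was WT DSS.

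The KO against WT difference in C1qa was larger under DSS than in untreated mice. The interaction of genotype and DSS was 1.91 on the log2(RPKM + 1) scale (SE 0.42, limma adjusted p = 0.0479 over 11306 genes tested), and 1.4% of those genes were called. The call was lost in the fit with no filter (adjusted p = 0.0985, 0.0217% of 18398 genes called) and with the length trend taken out (adjusted p = 0.0620). It held in 2 of the 12 fits that left out a library, without KO DSS 1 and without WT untreated 2. A genotype difference particular to the libraries of one table does not cancel in the interaction, so DSS and batch cannot be told apart in it.

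C1qb and C1qc differed less between genotypes than C1qa, and neither was called. C1qb had 0.429, 0.624 and 0.711 RPKM in KO DSS libraries, against 0.172, 0.374 and 0.282 RPKM in WT DSS libraries. The groups did not overlap, but the lowest KO library lay close to the highest WT library. C1qc had 0.0750, 0.475 and 0.930 RPKM in KO DSS libraries, against 0.0600, 0.336 and 0.236 RPKM in WT DSS libraries. Here the groups overlapped, because KO DSS 1 held 1 read. Summed over 3 libraries, C1qb held 29 reads in KO DSS and 15 in WT DSS, and C1qc 24 and 11 in the same order.

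Both genes were below the filter in each table. In the fit with no filter the log2 difference under DSS was 0.31 for C1qb (SE 0.09, limma adjusted p = 0.227) and 0.27 for C1qc (SE 0.20, limma adjusted p = 0.557). The C1qc difference was 0.063 without KO DSS 3 and 0.49 without KO DSS 1, and with a pseudocount of 0.1 RPKM the differences were 0.89 for C1qb and 0.71 for C1qc. The ratio of means was 2.13 for C1qb and 2.34 for C1qc. In untreated mice C1qb had 0.295, 0.199 and 0.270 RPKM in KO libraries, against 0.241, 0.119 and 0.0426 RPKM in WT libraries. C1qc had 0.387, 0.174 and 0.0471 RPKM in KO untreated libraries, against 0.168, 0.0828 and 0.0893 RPKM in WT untreated libraries. The groups overlapped for both, at 1 to 10 reads per library.

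The chains were then set against each other within each library. C1qa divided by the mean of C1qb and C1qc, in RPKM, was 7.24, 8.95 and 2.80 in KO DSS libraries, against 1.01, 0.922 and 0.222 in WT DSS libraries. WT DSS was the one group in which C1qa did not stand clear of the other chains. In untreated mice the ratio was 10.7, 17.3 and 14.8 in KO libraries, against 22.4, 18.4 and 78.5 in WT libraries. Between C1qb and C1qc the ratio was 0.764 to 5.73 in KO DSS, 1.11 to 2.86 in WT DSS, 0.764 to 5.73 in KO untreated and 0.477 to 1.43 in WT untreated libraries. C1qb and C1qc were thus never more than 5.73-fold apart in a library, while C1qa ranged from below them to far above them. The ratio of 5.73 came from 6 C1qb reads against 1 C1qc read, in KO DSS 1 and in KO untreated 5. The bound therefore rests on very few reads.

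As a share of the reads on the 3 genes, C1qa took 78.1% (95% exact interval 60 to 90.7), 81.7% (72.9 to 88.6) and 58.5% (45.6 to 70.6) in KO DSS libraries. In WT DSS libraries it took 33.3% (4.33 to 77.7), 31.6% (12.6 to 56.6) and 10% (0.253 to 44.5) of 6, 19 and 10 reads. The interval of WT DSS 1 reaches into the range of the KO DSS libraries, and the intervals cover counting error only. In KO untreated libraries the share was 84.3 to 89.6%, and in WT untreated libraries 90.2 to 97.5%.

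The log2 excess of C1qa over the mean of the other chains (log2 of RPKM + 1) averaged 1.33 ± 0.55 in KO DSS and −0.09 ± 0.14 in WT DSS (SD, n = 3 each). The difference was 1.42, with a 2-sided exact permutation p of 0.1, the smallest that 3 against 3 libraries can give. Its size depended on the pseudocount: it was 1.87 with 0.5 RPKM and 2.74 with 0.1 RPKM, at the same exact p. In untreated mice the excess averaged 1.72 ± 0.16 in KO and 2.04 ± 0.60 in WT (SD, n = 3 each), a difference of −0.32 (2-sided exact permutation p = 0.5). Measured as C1qa's percentage of the summed RPKM, the untreated difference was −5.86 points with an exact permutation p of 0.1.

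**Figure D1:**
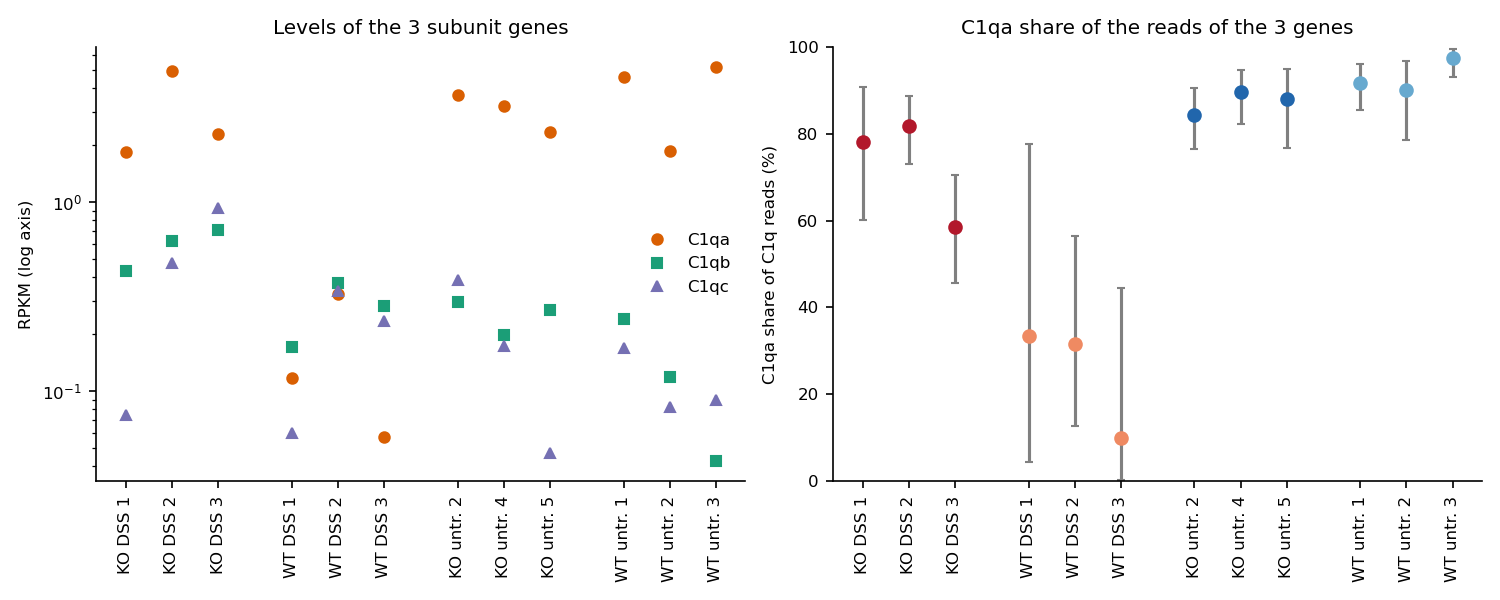
C1qa, C1qb and C1qc in each library: RPKM on a log axis (left), and the percentage of the reads on the 3 genes that fell on C1qa, with 95% exact intervals (right), libraries coloured by group. C1qa lies well above the other chains in 9 libraries and between or below them in the 3 WT DSS libraries, whose shares of 10 to 33.3% have the widest intervals.

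Lyz2, which encodes the lysozyme of macrophages and other myeloid cells, had the highest mean level of the 10 in KO DSS, though Fcer1g was above it in KO DSS 1 and C1qa in KO DSS 2. It had 2.69, 4.68 and 7.48 RPKM in KO DSS libraries, against 1.14, 1.62 and 2.29 RPKM in WT DSS libraries. All KO values were above all WT values, and the spread within KO was wide. The means were 4.95 ± 2.41 RPKM in KO DSS and 1.68 ± 0.581 RPKM in WT DSS (SD, n = 3 each). The log2 difference was 1.09 (SE 0.28), which did not pass the test (limma adjusted p = 0.117). Without KO DSS 1 the difference was 1.39 (limma adjusted p = 0.0162); the other 5 fits that left out a library did not pass, the lowest being 0.79 without KO DSS 3 (limma adjusted p = 0.384).

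In untreated mice Lyz2 had 1.66, 0.970 and 1.97 RPKM in KO libraries, against 1.05, 0.866 and 1.74 RPKM in WT libraries. The groups overlapped, with a log2 difference of 0.19 (SE 0.19, limma adjusted p = 0.754). Lyz2 and Lyz1, the Paneth cell lysozyme, are near-identical copies, and how the authors' counting shared reads between them is not given in the sources used here. Lyz1 had 0.247 to 0.568 RPKM in KO DSS and 0.0983 to 0.233 RPKM in WT DSS libraries, so the split between the copies is uncertain.

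Tyrobp and Fcer1g encode small membrane adaptors that lend signalling to receptors with none of their own. Tyrobp, also called DAP12, pairs with receptors such as TREM2, and Fcer1g, the common Fc receptor gamma chain, pairs with Fc receptors. Both signal through an immunoreceptor tyrosine-based activation motif, in which paired tyrosines recruit the kinase Syk. The codons of that motif are shown because these adaptors, like Lyz2, had no overlap between the DSS groups. Capitals mark the codons of the tyrosines and of the leucine that completes each YxxL element, read 5′ to 3′ on the coding strand from the GENCODE vM21 transcripts (GRCm38), and each stretch crosses an intron.
Tyrobp, chr7:30415670-30417382, plus strand: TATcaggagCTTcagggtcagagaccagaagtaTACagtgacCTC
Fcer1g, chr1:171229889-171230072, minus strand: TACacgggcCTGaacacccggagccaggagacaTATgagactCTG
In both, 7 codons separate the first part of the motif from the second.

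Tyrobp had 2.35, 2.63 and 4.23 RPKM in KO DSS libraries, against 1.22, 1.34 and 1.96 RPKM in WT DSS libraries. The groups did not overlap. The log2 difference was 0.68 (SE 0.20, limma adjusted p = 0.141). Fcer1g had 3.24, 3.90 and 4.37 RPKM in KO DSS libraries, against 2.11, 1.35 and 2.55 RPKM in WT DSS libraries. Again each KO library was above each WT library, and the log2 difference was 0.70 (SE 0.18, limma adjusted p = 0.111). Neither passed the test. With the length trend taken out the differences were 0.37 for Tyrobp (limma adjusted p = 0.397) and 0.41 for Fcer1g (limma adjusted p = 0.297).

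In untreated mice the adaptors overlapped between genotypes. Tyrobp had 1.28, 0.960 and 2.26 RPKM in KO libraries, against 1.01, 1.07 and 2.22 RPKM in WT libraries. Fcer1g had 1.67, 1.28 and 1.74 RPKM in KO libraries, against 1.42, 1.66 and 2.57 RPKM in WT libraries. The log2 differences were 0.04 for Tyrobp (SE 0.23, limma adjusted p = 0.967) and −0.15 for Fcer1g (SE 0.16, limma adjusted p = 0.761). The interaction was 0.90 for Lyz2 (limma adjusted p = 0.230), 0.64 for Tyrobp (0.318) and 0.86 for Fcer1g (0.103), so a difference between the DSS and untreated contrasts was not called for them.

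The surface markers were near the limit of these libraries. Adgre1, which encodes the F4/80 antigen of mature mouse macrophages, had 1, 9 and 11 reads in KO DSS libraries, against 1, 1 and 2 reads in WT DSS libraries. KO DSS 1 was at the WT level, so the groups overlapped. In untreated mice it had 0, 1 and 0 reads in KO libraries and 0, 0 and 1 reads in WT libraries, which is at or under the 3 reads that a count of 0 allows. Csf1r, the receptor for the growth factor that macrophages depend on, had 0.0816, 0.371 and 0.540 RPKM in KO DSS libraries, against 0.131, 0.183 and 0.0962 RPKM in WT DSS libraries. KO DSS 2 and KO DSS 3 were above every WT DSS library and KO DSS 1 was below all of them. The Csf1r gene overlaps Hmgxb3 on the opposite strand and Mir6983 on the same strand, and whether the counting used strand is not given in the sources used here.

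Cd68, a lysosomal glycoprotein of macrophages, had 0.570, 0.652 and 1.73 RPKM in KO DSS libraries, against 0.710, 0.237 and 0.748 RPKM in WT DSS libraries. The groups overlapped and KO DSS 3 alone stood above. Itgax, which encodes CD11c, an integrin of dendritic cells and of many gut macrophages, had 0.164, 0.520 and 0.785 RPKM in KO DSS libraries, against 0.132, 0.246 and 0.244 RPKM in WT DSS libraries. KO DSS 1 lay within the WT range. In the fit with no filter the log2 differences of these 4 markers ran from 0.15 (Adgre1) to 0.31 (Cd68), with limma adjusted p of 0.349 to 0.558. Leaving out KO DSS 3 lowered Csf1r to 0.10, Cd68 to 0.059 and Itgax to 0.14, and with a pseudocount of 0.1 RPKM the differences were 0.70 for Csf1r, 0.83 for Adgre1 and 0.80 for Itgax.

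In untreated mice the levels of Csf1r were 0.0378 to 0.167 RPKM in KO and 0.0563 to 0.182 RPKM in WT libraries, and those of Cd68 0.279 to 0.654 RPKM in KO and 0.245 to 0.566 RPKM in WT libraries. Both overlapped. Itgax had 0.113, 0.0930 and 0.287 RPKM in KO untreated libraries, against 0.0923, 0.0806 and 0.0761 RPKM in WT untreated libraries. It was the one gene of the 10 with no overlap between the untreated groups, by a margin under 0.001 RPKM between the closest libraries, and it did not pass in the fit with no filter (log2 difference 0.10, limma adjusted p = 0.737; 0.00558% of 17919 genes called).

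**Figure D2:**
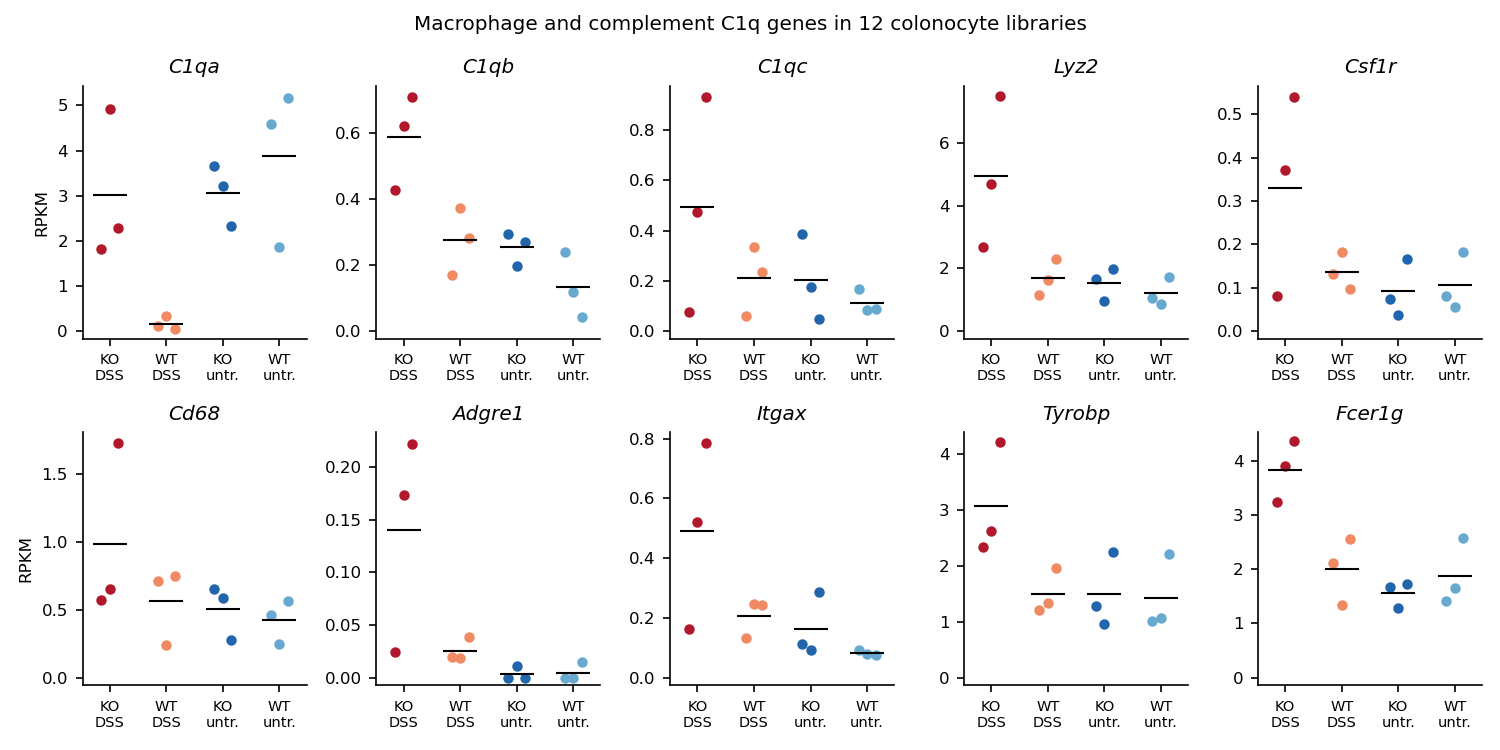
RPKM of the 10 genes in the 12 libraries, 1 panel per gene with its own linear axis; points are libraries and lines are group means of 3. KO DSS has the highest mean for 9 of the 10 genes, and C1qa alone has its WT DSS points (0.0574 to 0.327 RPKM) far below those of the other groups.

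Across the 10 genes, the KO mean was higher than the WT mean for 10 under DSS and for 6 in untreated mice. In the fit with no filter, 51.5% of 17576 genes had a log2 difference above 0 under DSS. In untreated mice this was 50.8% of 17919 genes, so the 6 of 10 there is near the share over all genes. The KO libraries lay above the WT libraries with no overlap for 5 of 10 under DSS (C1qa, C1qb, Lyz2, Tyrobp and Fcer1g), where 9.51% of all 17576 genes with a read did so. In untreated mice this was 1 of 10, beside 6.43% of 17919 genes. Under DSS 4 of the 10 passed the filter and 1 was called, beside 0.764% of the genes tested; 4 of these 4 had an unadjusted p under 0.05, beside 18.7% of the genes tested. In untreated mice 4 passed and 0 were called, beside 0.0181%; 0 of these 4 had an unadjusted p under 0.05, beside 9.09% of the genes tested, and limma-voom on the recovered reads also called 0. The median log2 difference of the 4 tested genes was 0.90 under DSS and −0.06 in untreated mice, beside −0.01 and 0.01 over all genes tested. The 4 tested under DSS include C1qa, which passed the filter through the KO DSS libraries alone.

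**Figure D3:**
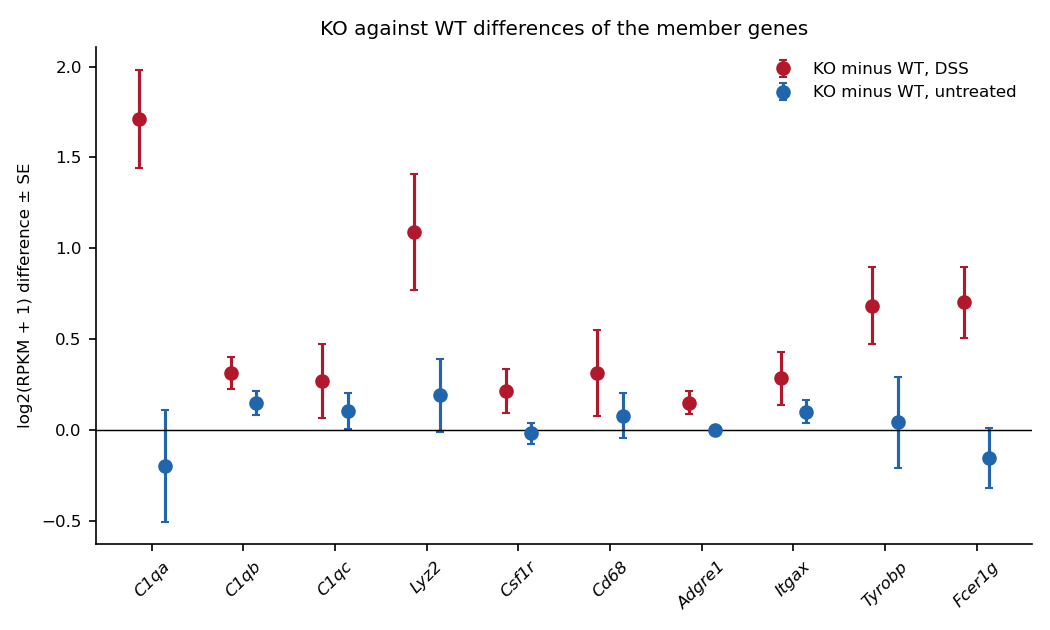
KO minus WT difference of each gene on the log2(RPKM + 1) scale with its SE, from the limma fit with no filter on low values, under DSS and in untreated mice (n = 3 libraries per group). Under DSS all 10 differences are above 0, with C1qa at 1.71; in untreated mice they run from −0.20 (C1qa) to 0.19 (Lyz2).

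The authors' deposited table gives C1qa a log2 fold change of 4.10 under DSS with a false discovery rate of 0.00562. For the other 9 genes the authors' deposited table has positive log2 fold changes under DSS, from 0.82 (Cd68) to 2.40 (Adgre1), with false discovery rates of 0.0695 (Lyz2) to 0.628 (Cd68). In untreated mice the authors' deposited table gives all 10 a false discovery rate of 1. Limma-voom on the recovered reads gave C1qa a log2 difference of 4.10 (adjusted p = 0.0376), larger than the 1.71 obtained with a pseudocount of 1 RPKM.

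C1qa and the other 9 genes also differed in which KO DSS library was highest. KO DSS 3 was the highest of the 3 for 9 of 10 genes, and for C1qa it was KO DSS 2. KO DSS 1 was the lowest for all 10. The summed level of the 9 genes without C1qa was 9.62, 14 and 21.0 RPKM in KO DSS libraries, against 5.69, 5.70 and 8.44 RPKM in WT DSS libraries. In untreated mice that sum was 6.14, 4.31 and 7.01 RPKM in KO libraries, against 4.52, 4.17 and 7.50 RPKM in WT libraries. Without C1qa the WT DSS sum was thus within or next to the range of the untreated libraries, and the KO DSS libraries stood above both.

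Genes whose pattern over the 6 DSS libraries was closely like that of C1qa (Pearson r of log2(RPKM + 1)) included St3gal5 (0.999), Ppp1cb (0.990), Gnai3 (0.989) and Fam3c (0.988). St3gal5 encodes the synthase of the ganglioside GM3, Ppp1cb a catalytic subunit of protein phosphatase 1, Gnai3 an inhibitory G protein subunit and Fam3c a secreted protein. Among 10989 genes ranked, Lyz2 came 517th (r = 0.787), Fcer1g 519th (0.786) and Tyrobp 779th (0.721). These r values describe 6 libraries that share a table and a genotype split, and they carry no test.

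St3gal5 had 4.38, 16.5 and 5.41 RPKM in KO DSS libraries, against 0.335, 0.530 and 0.177 RPKM in WT DSS libraries. In untreated libraries, which played no part in the choice, St3gal5 had 7.46, 10.5 and 8.52 RPKM in KO and 17.3, 6.44 and 10.01 RPKM in WT. As for C1qa, WT DSS lay below all untreated libraries, while the order of the KO untreated libraries was not that of C1qa. The other look-alikes differed from C1qa there: Ppp1cb had 162 to 163 RPKM in WT DSS, 118 to 131 RPKM in KO untreated and 136 to 179.7 RPKM in WT untreated libraries, and Gnai3 had 86.4 to 91.7 RPKM in WT DSS, 82.8 to 87.6 RPKM in KO untreated and 89.5 to 105 RPKM in WT untreated libraries. Fam3c had 5.98 to 7.04 RPKM in WT DSS, 6.98 to 10.2 RPKM in KO untreated and 8.07 to 12.7 RPKM in WT untreated libraries.

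**Figure D4:**
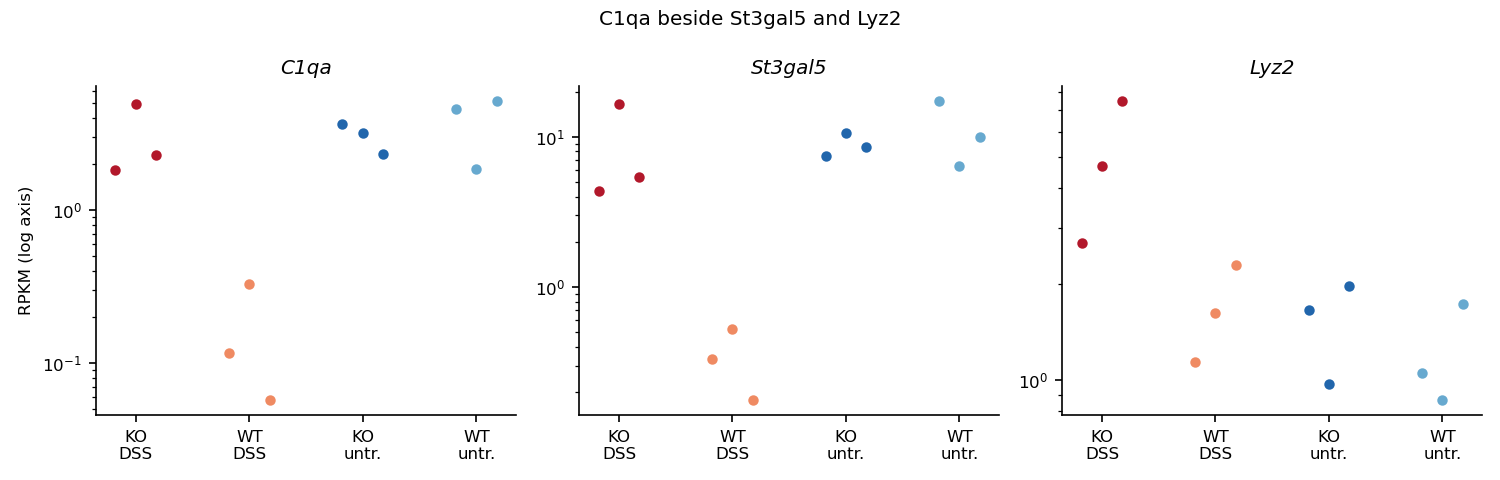
RPKM (log axes, one per gene) of C1qa, of St3gal5, whose r with it over the 6 DSS libraries was 0.999, and of Lyz2 in the 12 libraries, 3 points per group. C1qa and St3gal5 have their WT DSS points far below the other 3 groups, and Lyz2 has its KO DSS points (2.69 to 7.48 RPKM) above them.

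Other genes of the same cells and pathways were examined as lists. Over all 10990 genes tested under DSS, 49.2% had a positive difference. The counts of positive differences in each list are to be read beside that share. Of 38 further macrophage and monocyte genes, 13 were tested under DSS, 9 had a positive difference and 0 were called (limma; 4 had an unadjusted p under 0.05, and limma-voom called 0). Apoe, an apolipoprotein that tissue macrophages make in quantity, averaged 3.12 ± 0.50 RPKM in KO DSS and 1.58 ± 0.399 RPKM in WT DSS (SD, n = 3 each; log2 difference 0.68, limma adjusted p = 0.0982). Vsig4, a complement receptor of tissue macrophages, had 0 reads in each group, and Cd163, a macrophage scavenger receptor, held 0 reads in KO DSS and 1 read in each of WT DSS, KO untreated and WT untreated.

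Of 33 genes of the classical complement pathway and its regulators, 8 were tested under DSS, 5 had a positive difference and 0 were called (limma; 2 had an unadjusted p under 0.05, and limma-voom called 0). C2, which supplies the protease of the C3 convertase, averaged 2.29 ± 0.775 RPKM in KO DSS and 1.12 ± 0.221 RPKM in WT DSS (SD, n = 3 each; log2 difference 0.61, limma adjusted p = 0.157). Cd55, an inhibitor of that convertase, averaged 18.4 ± 4.52 RPKM in KO DSS and 12 ± 2.33 RPKM in WT DSS (log2 difference 0.57, limma adjusted p = 0.180). The median of the list was 0.20 on the log2 scale.

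Of 20 partners and effectors of the ITAM adaptors, 6 were tested under DSS, 4 had a positive difference and 0 were called (limma; 0 had an unadjusted p under 0.05, and limma-voom called 0). Plcg2, a phospholipase downstream of Syk, averaged 2.31 ± 0.509 RPKM in KO DSS and 2.81 ± 0.520 RPKM in WT DSS (log2 difference −0.21, limma adjusted p = 0.497). Of 12 genes of the CSF1R axis, 5 were tested, 2 had a positive difference and 0 were called (limma; 0 had an unadjusted p under 0.05, and limma-voom called 0). Irf8, a transcription factor of monocytes and dendritic cells, averaged 37.8 ± 8.93 RPKM in KO DSS and 30.1 ± 4.30 RPKM in WT DSS (log2 difference 0.30, limma adjusted p = 0.386).

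Markers of other cells also differed between the DSS groups, and the sum that was lower in every KO library came from genes near the floor. The summed level of 17 genes that leukocytes share was 46.8 to 73.8 RPKM in KO DSS and 40.7 to 48.1 RPKM in WT DSS. Of these, 10 of 11 tested genes had a positive difference, beside 49.2% of all genes tested. The summed level of 18 T cell, NK and intraepithelial lymphocyte genes was 39.7 to 64.1 RPKM in KO DSS and 22.5 to 38.9 RPKM in WT DSS. Here 11 of 12 tested genes were above 0. Over 14 neutrophil genes the sum was 63.0 to 131 RPKM in KO DSS and 38.4 to 72.3 RPKM in WT DSS, so the groups overlapped. Only 3 of the 14 in KO DSS and 1 in WT DSS averaged 1 RPKM or more, so few genes set this sum. The 2 tested were S100a8 (log2 difference 1.03, limma adjusted p = 0.162) and Ly6g (0.70, limma adjusted p = 0.232). In untreated mice the sum was 49.8 to 61.2 RPKM in KO and 15.9 to 40.5 RPKM in WT libraries. Ly6g was the 1 gene tested there (log2 difference 1.14, limma adjusted p = 0.497). Mpo, Elane, Camp and Ngp, which encode neutrophil granule proteins, had 0 reads in both DSS groups. The sum over 9 endothelial genes was lower in every KO DSS library, at 1.54 to 1.66 RPKM in KO DSS and 1.76 to 2.67 RPKM in WT DSS. In both DSS groups 0 of the 9 averaged 1 RPKM or more, and 0 were tested under DSS. The sums overlapped for 6 smooth muscle genes, at 0.273 to 2.04 RPKM in KO DSS and 0.254 to 2.56 RPKM in WT DSS, and for 12 mast cell and basophil genes, at 14.5 to 17.6 RPKM in KO DSS and 14.4 to 22.8 RPKM in WT DSS. Over 12 colon epithelium genes it was 19469 to 23394 RPKM in KO DSS and 11006 to 16801 RPKM in WT DSS, but the median log2 difference of the single genes was 0.11, from −0.30 (Muc2) to 1.29 (Car1). Their part in the differences of the macrophage genes was not tested. In bulk libraries, fewer cells of a type and less RNA per cell cannot be told apart.

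Within these lists under DSS, 0 genes were called by limma, and limma-voom called 0. Over the 14 lists other than the macrophage and C1q genes, 73 genes were tested. Of these, 23 had an unadjusted p under 0.05 (limma), 21 of them higher in KO. Over all genes tested, 18.7% had such a p in either direction. A low gene can pass the filter through the 3 libraries of 1 group alone. In some lists more genes averaged 1 RPKM or more in KO DSS than in WT DSS. These were 3 and 1 of the 14 neutrophil genes, and 14 and 10 of the 17 genes that leukocytes share. The count and its direction therefore depend in part on the filter and are not read as support. Klrd1, an NK cell lectin receptor, averaged 4.60 ± 0.682 RPKM in KO DSS and 2.06 ± 0.745 RPKM in WT DSS (SD, n = 3 each; log2 difference 0.89, limma adjusted p = 0.0782), and the chemokine gene Xcl1 7.52 ± 1.57 and 3.90 ± 0.892 RPKM in the same order (log2 difference 0.80, limma adjusted p = 0.0929). Cd52, a leukocyte surface glycoprotein, averaged 8.11 ± 1.73 RPKM in KO DSS and 4.27 ± 0.433 RPKM in WT DSS (log2 difference 0.77, limma adjusted p = 0.0797). In untreated mice 68 genes of these lists were tested and 0 were called (limma; 6 had an unadjusted p under 0.05, and limma-voom called 0).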

How the data were processed

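Per the labels' protocols, miRNeasy kits gave the RNA and KAPA mRNA HyperPrep the stranded libraries of polyadenylated RNA. Per the submitters' processing notes, the authors used TopHat2 2.1.1, edgeR 3.30.3 and the build GRCm38/mm10. The counter is not given in the sources used here, nor is the annotation. The 2 deposited tables list RPKM by library beside the authors' log2 fold change, p-value and false discovery rate, per the file headers. Each has 23794 gene lines; 4 with a repeated name were left out, and 0 sample columns were unmapped.

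A gene's RPKM values move in steps of 1 read. Reads were recovered for 18398 of 18398 genes with reads (100%, tolerance 0.02 reads). Because the unit is RPKM and not counts, log2(RPKM + 1) was tested 2-sided with limma 3.58.1 (R 4.3.3), using its trended variance prior. Genes had to reach 1 RPKM in at least 3 compared libraries. P-values were adjusted by Benjamini-Hochberg over all genes tested and called under 0.05. KO was compared with WT within each table, and the interaction over 12 libraries. The C1q chains were compared with a 2-sided exact permutation test in scipy 1.17.1, and shares of reads have exact (Clopper-Pearson) 95% intervals. Alternatives changed the pseudocount, filter, variance trend, centring, length trend, shared spread, replicate block, limma-voom on recovered reads and each replicate in turn. In simulated data with 50 genes changed 2-fold, 98% were recovered under DSS (10990 genes), 100% in untreated mice (11072 genes) and 90% in the interaction (11306 genes). The changed genes were drawn from those with a mean of 2 RPKM or more. The simulated spread was smoothed over genes of like level and was not that of each gene. These shares therefore do not give the power for lower genes or for genes with a wider spread.

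The 10 genes, the lists and the tests were chosen with earlier results of these data known. Genes named come from the 10, the 5 tested genes most like C1qa (gene models left out) and the 2 with the smallest p of a list; some genes that this rule takes are not reported here; others were chosen after their values were seen.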

Additional observations from a re-analysis of the deposited data

Results flagged for a closer look

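C1qa was picked out because its KO against WT difference differed between DSS and untreated mice. Under DSS the difference was 1.71 on the log2(RPKM + 1) scale, and in untreated mice it was −0.20, so the interaction was 1.91 (SE 0.42, limma adjusted p = 0.0479). C1qa was higher than every WT library in 3 of 3 KO libraries under DSS, and the genotypes overlapped in untreated mice. Over the alternatives that left out 1 library the interaction stayed between 1.59 and 2.26, with adjusted p from 0.0211 to 0.114. The DSS libraries and untreated libraries stand in separate tables, and DSS and batch cannot be told apart.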

How the results depend on the processing

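Under DSS 84 genes were called, against 1 with no filter, 295 with the length trend taken out, 623 with the spread shared over 12 libraries and 398 with the replicate block; leaving out 1 library gave 1 to 368 (368 without KO DSS 1, 52 without KO DSS 2, 5 without KO DSS 3, 2 without WT DSS 1, 1 without WT DSS 2 and 40 without WT DSS 3). In untreated mice 2 were called, against 1 with no filter, 1 with the shared spread and 2 to 6 on leaving out a library (6 without WT untreated 1). In the interaction 158 were called, against 4 with no filter, 538 with the length trend taken out and 1 to 425 on leaving out a library (425 without KO DSS 1, 300 without WT DSS 3, and 1 to 43 without KO DSS 3, WT DSS 1, WT DSS 2 or any untreated library). Same-numbered DSS libraries had correlated deviations of −0.11, 0.36 and 0.13. KO DSS 2 correlated best with WT DSS 2 and KO DSS 3 with WT DSS 3. KO DSS 1 correlated best with WT DSS 3 (0.30), so whether the numbers pair the libraries is not settled. With the block, Lyz2 (adjusted p = 0.00973), Tyrobp (0.0305) and Fcer1g (0.0410) passed, and the C1q difference of 1.42 had an exact p of 0.25, the smallest possible. With the shared spread Lyz2 (0.0396) and Fcer1g (0.0408) passed. No paired analysis was possible in untreated mice because the groups share only 1 replicate number. Small untreated differences changed sign on leaving out a library, within −0.54 to 0.013 for C1qa and −0.27 to 0.012 for Fcer1g (both without WT untreated 3) and −0.17 to 0.26 for Tyrobp (without KO untreated 5, WT untreated 1 or WT untreated 2; also −0.025 with the length trend taken out). The cause was not tested. The C1qa differences under DSS and in the interaction kept their sign under every alternative run, at 1.39 to 1.93 and 1.59 to 2.26 on leaving out a library. At 1 to 15 reads per library, C1qb and C1qc set the precision of the chain ratios.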

Other observations

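Some genes of the same cells and pathway were too low for the filter or stood apart in one group; they were chosen after their values were seen. Fcgr3, an activating Fc receptor that pairs with Fcer1g, had 0.292 to 0.821 RPKM in KO DSS libraries, against 0.0919 to 0.187 RPKM in WT DSS libraries, with 38 and 10 reads in the same order. Spi1, which encodes the myeloid transcription factor PU.1, held 26 reads in KO DSS and 2 reads in WT DSS. C1ra, a protease that binds C1q, was lower in every KO DSS library than in any WT DSS library, with 0.295 to 0.458 RPKM in KO DSS libraries, against 0.900 to 1.67 RPKM in WT DSS libraries. Its interaction of genotype and DSS was −0.74 (SE 0.19, limma adjusted p = 0.0742) and did not pass.

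Mrc1, the mannose receptor of tissue macrophages, stood apart between genotypes in untreated mice, with 0.207 to 3.02 RPKM in KO libraries, against 4.61 to 7.68 RPKM in WT libraries. The groups did not overlap, and the log2 difference of −1.51 did not pass the test (SE 0.40, limma adjusted p = 0.497). Under DSS it ranged from 0.238 to 4.55 RPKM in KO and from 0.357 to 4.84 RPKM in WT libraries, where the groups overlapped.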
